A study of Homo sapiens with 6 samples.

Results

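Mediator is the multi-subunit complex that connects transcription factors bound at enhancers with RNA polymerase II at promoters. All 33 of the human genes encoding its subunits, including the paralogs MED12L, MED13L and CDK19, were found by symbol in the expression table of LY2 cells, among 17939 genes in all. They were grouped by their place in the complex into a head of 7 genes, a middle module of 9, a tail of 9, a dissociable kinase module of 7, and MED14, the backbone that joins head, middle and tail. LY2 is an estrogen receptor-positive (ER+), tamoxifen-resistant line derived from MCF-7 breast cancer cells. Cells of both groups were serum-deprived in medium free of 4-hydroxytamoxifen and then received, at 30 nmol/L, either an siRNA pool that targets CDK12 (siCDK12) or a non-targeting one (siCtrl). RNA was taken 48 hours later, with 3 libraries per group, described in the study's methods as biological replicates of this single line.

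The head contacts RNA polymerase II, the middle module passes signals between head and tail, and the tail carries many of the surfaces that activators bind. The kinase module, built from CDK8 or CDK19 with cyclin C, MED12 or MED12L, and MED13 or MED13L, binds the core complex reversibly and hinders its contact with polymerase. In ER+ cells Mediator is best known through MED1, whose LxxLL motifs bind ligand-bound nuclear receptors, ER among them. CDK12, the kinase targeted here, phosphorylates the polymerase tail during elongation and is not a Mediator subunit, and the comparison asks how the transcripts of the complex responded when CDK12 was depleted.

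CDK12 transcript was at 2.23, 2.83 and 2.44 FPKM in siCDK12 replicates 1, 2 and 3, and at 11.17, 10.7 and 10.3 FPKM in siCtrl replicates 1, 2 and 3, the order kept for all values given per library. FPKM is a fragment count normalized for transcript length and library total. Every siCDK12 library was therefore below every siCtrl library (log2 fold change -2.06, limma adjusted p = 3.17e-07). FPKM sums ranged from 448633 to 461038, and between 11488 and 11538 genes reached 1 FPKM per library. All 7 luminal markers were at 39.37 FPKM or more in each library, while 9 of 11 markers of basal, leukocyte, endothelial and fibroblast cells stayed under 1 FPKM throughout. The exceptions were TP63, with a mean of 1.63 FPKM with siCDK12 and 2.05 FPKM with siCtrl, and COL1A1, with 10.8 and 7.93 FPKM. The luminal markers did not move together. KRT8, KRT18, GATA3 and CDH1 were called higher, FOXA1 and EPCAM were not called, and ESR1, the gene of the estrogen receptor, was lower, at 40.4 ± 1.29 FPKM with siCDK12 against 50.9 ± 1.58 FPKM with siCtrl (SD, n = 3; limma adjusted p = 0.000187, log2 fold change -0.33). Their summed level, mostly KRT8 and KRT18, lay between 4349 and 4436 FPKM with siCDK12 and between 3909 and 3931 FPKM with siCtrl. The fibroblast sum, nearly all COL1A1, lay between 10.72 and 11.22 FPKM against 7.76 to 8.62 FPKM, whereas the basal keratin KRT14 and the T cell marker CD3E were at 0 throughout. The part of these differences in the changes of Mediator genes was not tested. FPKM is relative to the RNA of the whole culture, so that fewer expressing cells and less RNA per cell cannot be told apart.

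All 33 Mediator genes averaged 1 FPKM or more over the 6 libraries and were tested. With CDK12 knockdown 5 were higher and 4 lower at a limma adjusted p under 0.05, and 24 were not called. The share of called members, 27.3%, was close to that of all 11533 genes tested, of which 28.3% were called, 16.1% higher and 12.3% lower. After median-ratio scaling 3 members were higher and 4 lower, beside 11.9% and 14.5% of all genes, and after quantile normalization the counts were again 3 and 4, beside 13.5% and 13.8%. Higher genes thus made up 56.7% of all calls in the reported fit, 45.1% after median-ratio scaling and 49.4% after quantile normalization. Without siCDK12 replicate 2 or siCtrl replicate 1, 2 members were called higher, and without siCDK12 replicate 3, 3 were. In the whole table, the genes called higher went from 1853 to 1369, 1433 and 1207 in the same order. The called changes were small, between 0.14 and 0.36 in size on the log2(FPKM + 0.1) scale. CDK8, MED24 and MED29 were lower and MED10 and MED4 higher in the reported fit and in all 16 alternative analyses. The calls of MED11, MED21, MED25 and MED28 were lost in some of them. The median log2 fold change of the members was 0.06 against 0.03 for all genes tested. It was 0.031 against 0.005 after median-ratio scaling and 0.043 against 0.013 after quantile normalization. In the reported fit 24 members had a positive and 9 a negative estimate, and the share of positive estimates over all genes was not taken. The siCDK12 and siCtrl libraries did not overlap for 12 members, 9 higher and 3 lower, whereas 43.1% of all genes tested did not overlap, 25.4% higher and 17.8% lower.

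**Figure D1:**
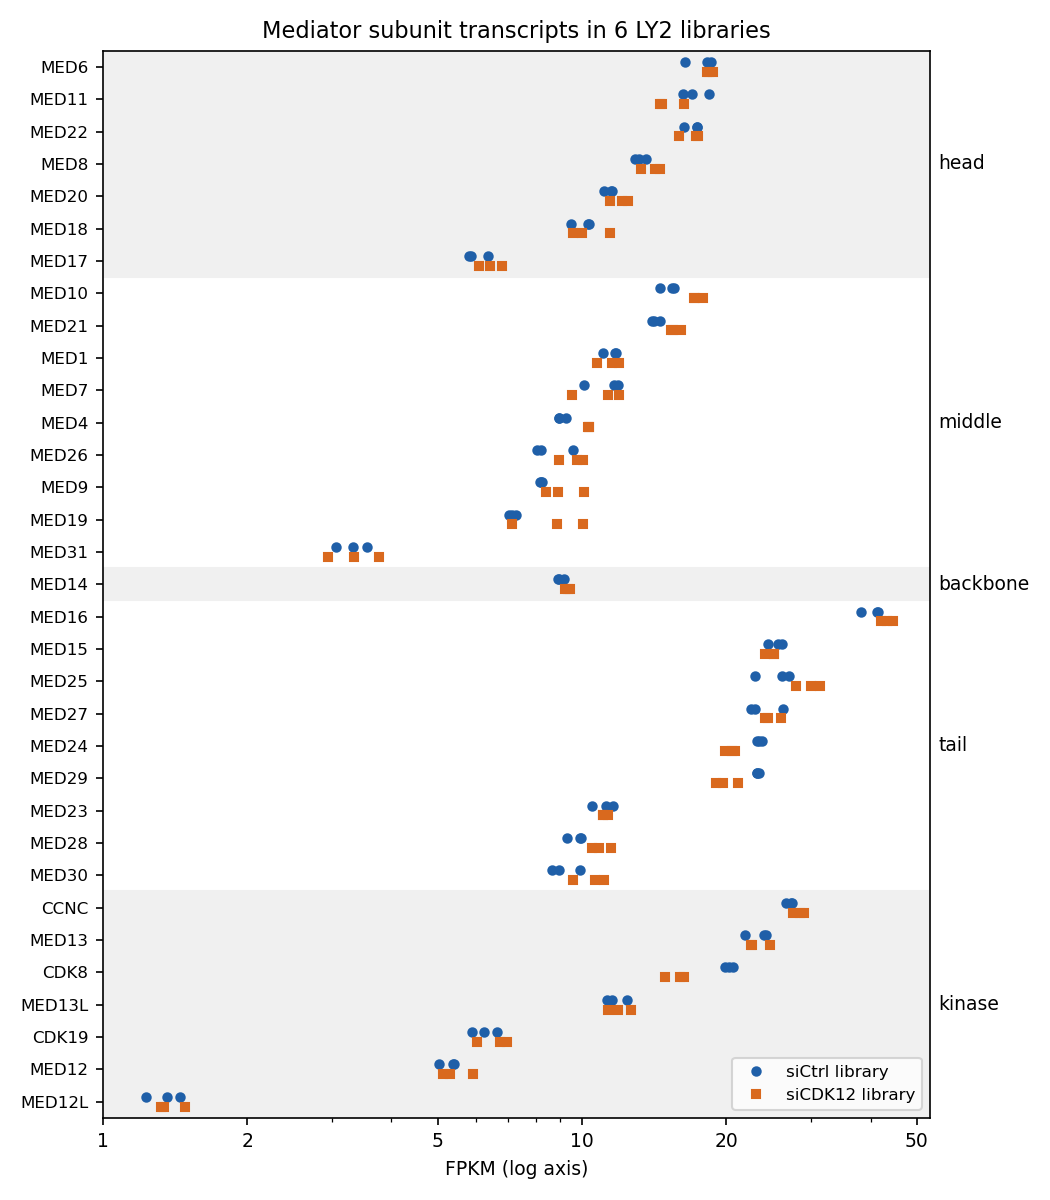
FPKM of each Mediator gene on a log axis, with 1 point per library (circles, 3 siCtrl libraries; squares, 3 siCDK12 libraries), ordered by siCtrl mean within each module. MED16 was the most abundant subunit and MED12L the least abundant, and for most genes the 2 groups lie side by side.

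In siCtrl cells the subunit transcripts covered a 29.9-fold range per length, from MED16 at 40.3 ± 1.87 FPKM (SD, n = 3) to MED12L at 1.35 ± 0.111 FPKM, although 30 of the 33 lay between 5 and 30 FPKM. Tail genes had the highest median level, 23.45 FPKM, followed by the head with 13.2 FPKM, the kinase module with 11.7 FPKM and the middle module with 9.05 FPKM. After MED16 came CCNC, MED15, MED25, MED27, MED24, MED13 and MED29, and the end of the order was MED17, MED12, MED31 and MED12L. Of the 32 pairs of neighbours in this order, 18 overlapped between siCtrl libraries and cannot be ranked, among them the chain from MED15 down to MED29. MED16 at the top and MED12, MED31 and MED12L at the bottom were each separated from their neighbours in all siCtrl libraries. MED14 stood at 9.01 FPKM, well within the range of the subunits it joins.

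The 5 genes called in every analysis lie on 4 chromosomes. Their promoter windows run from 250 bases before to 50 bases after the RefSeq start site (GRCh38.p14), 5′ to 3′ on the strand of the gene, and are shown because these 5 transcripts carry the firmest changes. Capitals mark matches, on either strand, to 6 searched motifs. These were TATAAA (the TATA box), CCAAT (the CCAAT box) and CCGGAA (a form of the ETS site, called the ETS core here). The others were CACGTG (the E-box), AGGTCA (the nuclear receptor core) and GCGCATGC (the core of the NRF1 site). None of the matches overlapped another in these windows.
CDK8 (lower), chr13:26253879-26254178, plus strand: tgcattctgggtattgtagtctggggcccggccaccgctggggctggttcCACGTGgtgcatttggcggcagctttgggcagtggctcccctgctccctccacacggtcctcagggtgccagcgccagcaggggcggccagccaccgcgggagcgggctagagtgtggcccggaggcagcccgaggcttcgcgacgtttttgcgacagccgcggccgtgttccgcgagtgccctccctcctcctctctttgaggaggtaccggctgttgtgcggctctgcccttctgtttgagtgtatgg
MED24 (lower), chr17:40054359-40054658, minus strand: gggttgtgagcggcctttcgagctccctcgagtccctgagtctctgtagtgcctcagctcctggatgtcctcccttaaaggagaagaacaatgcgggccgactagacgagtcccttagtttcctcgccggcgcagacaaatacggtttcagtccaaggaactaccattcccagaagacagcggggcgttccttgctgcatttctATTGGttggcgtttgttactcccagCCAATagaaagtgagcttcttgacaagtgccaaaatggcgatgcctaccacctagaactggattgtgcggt
MED29 (lower), chr19:39391128-39391427, plus strand: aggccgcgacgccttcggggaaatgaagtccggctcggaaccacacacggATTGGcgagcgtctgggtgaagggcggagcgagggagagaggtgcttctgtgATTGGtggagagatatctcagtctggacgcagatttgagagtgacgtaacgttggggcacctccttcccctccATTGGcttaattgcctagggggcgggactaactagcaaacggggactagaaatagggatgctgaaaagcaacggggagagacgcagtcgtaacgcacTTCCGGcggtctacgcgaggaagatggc
MED10 (higher), chr5:6378498-6378797, minus strand: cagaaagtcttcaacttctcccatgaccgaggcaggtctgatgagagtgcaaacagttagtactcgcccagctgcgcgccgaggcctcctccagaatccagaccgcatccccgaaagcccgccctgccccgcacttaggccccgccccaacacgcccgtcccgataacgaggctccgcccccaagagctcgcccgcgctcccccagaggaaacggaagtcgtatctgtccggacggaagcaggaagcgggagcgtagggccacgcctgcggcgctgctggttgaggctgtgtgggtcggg
MED4 (higher), chr13:48095055-48095354, minus strand: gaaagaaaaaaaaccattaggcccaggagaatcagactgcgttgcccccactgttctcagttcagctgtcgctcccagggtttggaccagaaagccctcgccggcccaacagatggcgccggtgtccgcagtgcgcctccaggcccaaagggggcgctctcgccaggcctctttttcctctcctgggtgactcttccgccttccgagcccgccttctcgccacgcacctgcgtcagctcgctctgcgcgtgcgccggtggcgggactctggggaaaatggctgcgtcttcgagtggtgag
Both lowered tail genes held CCAAT boxes, MED24 at positions -46 and -21 and MED29 at -200, -148 and -75 from the start site, and MED29 also held an ETS core at position 23. CDK8 held an E-box at -200. The windows of MED10 and MED4, the higher genes, held no exact match to the 6 strings searched. Variants of these motifs, such as shorter ETS sites, were not searched, so these windows may hold them. GC content was 67.0% for CDK8, 53.3% for MED24, 58.0% for MED29, 65.7% for MED10 and 63.3% for MED4, against a median of 58.7% over the 35116 windows of RefSeq promoters.

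Start-site windows were found for 25 of the 33 members, 30 windows in all. A CCAAT box was present in 36.7% of the member windows and 34.6% of all windows, and an ETS core in 36.7% and 17.2%. All windows were not limited to genes expressed in LY2 cells, whereas every member averaged 1 FPKM or more, so the sets are unlike. The E-box was present in 6.67% of member windows against 7.26% of all, and the TATA box in 6.67% against 11.5%. The nuclear receptor core was present in 3 of the 30 member windows and 13.8% of all windows, and the NRF1 core in 3 of 30 and 3.05%. A match describes the letters of these windows and not binding by a factor. The ETS core was found in windows of 10 members, MED11, MED17, MED18, MED20, MED7, MED31, MED15, MED29, CCNC and MED12. Of these 10, MED11 and MED29 were called, both lower, while 28.3% of all genes tested were called. The MED11 call was lost in 8 of 16 alternatives. A CCAAT box was found in windows of 10 members, MED1, MED7, MED19, MED16, MED24, MED29, CDK19, CCNC, MED12L and MED13L. Of these 10, only MED24 and MED29 were called, both lower, beside the same 28.3% of all genes tested. A relation of motif and direction was not tested for any of the motifs. The nuclear receptor core was found in MED26, MED16 and MED23, none of them called.

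The kinase module held the largest fall of the complex. CDK8, the catalytic subunit (chromosome 13, 26254129 to 26405238), was at 14.9, 16.3 and 15.98 FPKM with siCDK12 and at 20.61, 19.83 and 20.22 FPKM with siCtrl. The groups were well apart, and the mean fell by 22.2%, from 20.2 ± 0.39 to 15.7 ± 0.734 FPKM (SD, n = 3). On the log2 scale this was a change of -0.36 (SE 0.0469, 95% interval -0.47 to -0.26, limma adjusted p = 0.000316). The two-sided exact permutation p of 0.1 is the floor for 3 libraries against 3.

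CDK19, the paralog that can take the place of CDK8, was not called. It was at 6.73, 6.97 and 6.03 FPKM with siCDK12 and at 6.63, 5.89 and 6.24 FPKM with siCtrl, with overlapping groups (log2 fold change 0.07, 95% interval -0.09 to 0.23, limma adjusted p = 0.497). CDK8 accordingly made up 68.9%, 70.0% and 72.6% of the summed FPKM of the pair in the siCDK12 libraries against 75.7%, 77.1% and 76.4% in the siCtrl libraries. This ratio is taken within a library and does not depend on scaling between libraries, but it rests on how reads that match both paralogs were apportioned before deposit. The share was lower in every siCDK12 library, 70.5% ± 1.9 against 76.4% ± 0.72 (SD, n = 3), a difference of -5.88 percentage points (exact two-sided permutation p = 0.1, so that none of the 3 paralog shares compared could reach 0.05 in this design). The summed level of the pair was 22.3 ± 0.858 FPKM with siCDK12 and 26.5 ± 0.76 FPKM with siCtrl. CDK19 overlaps AMD1, at 35.7 FPKM in siCtrl cells, by 1239 bases, so its reads there are uncertain.

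**Figure D2:**
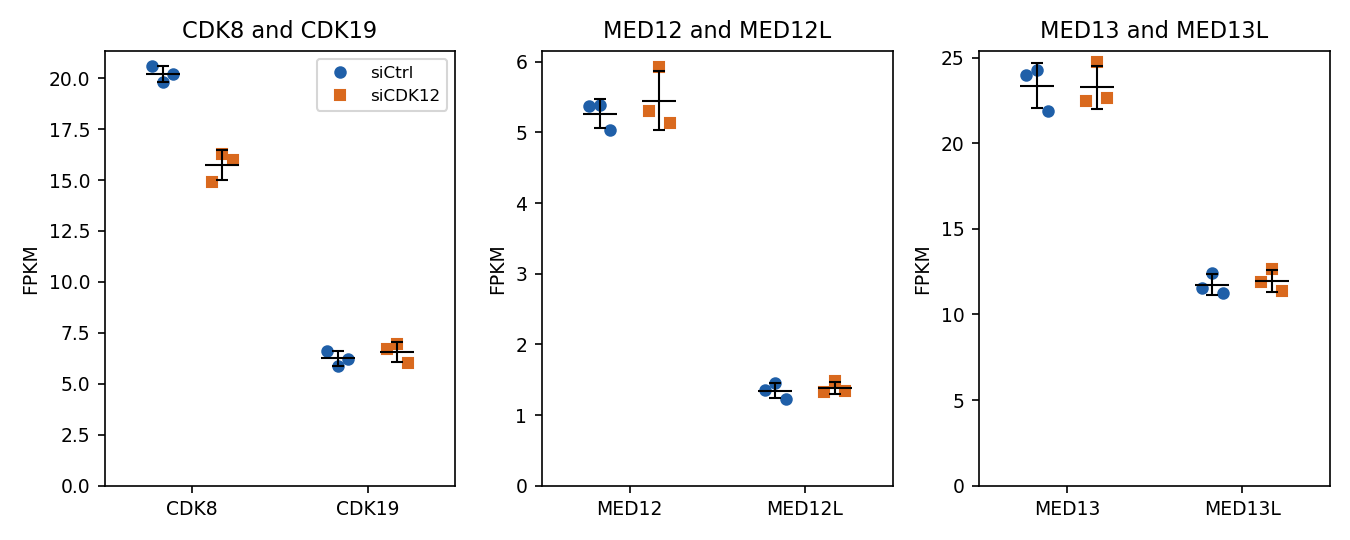
FPKM of the 3 paralog pairs of the kinase module, with 1 point per library (circles, siCtrl; squares, siCDK12) and black marks for the mean and SD of 3 libraries. CDK8 is lower in all 3 siCDK12 libraries, between 14.9 and 16.3 FPKM against 19.83 FPKM or more, while the other 5 genes overlap between groups.

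The remaining kinase module genes were not called. CCNC, which encodes cyclin C, the activating partner of both kinases, stood at 28.44, 27.53 and 29.04 FPKM with siCDK12 and at 27.46, 27.31 and 26.59 FPKM with siCtrl. Its groups did not overlap, yet the difference of 0.06 on the log2 scale did not pass (limma adjusted p = 0.256). Per length, its mean with siCtrl, 27.1 ± 0.465 FPKM, was close to the summed level of CDK8 and CDK19, 26.5 ± 0.76 FPKM. With siCDK12 the levels were 28.3 ± 0.76 and 22.3 ± 0.858 FPKM (SD, n = 3). MED12, which activates the kinase, was at 5.3, 5.92 and 5.13 FPKM with siCDK12 and 5.37, 5.39 and 5.03 FPKM with siCtrl. Its paralog MED12L was at 1.32, 1.48 and 1.34 FPKM with siCDK12 and 1.36, 1.45 and 1.23 FPKM with siCtrl, the lowest of all members. Both overlapped between groups, and MED12 made up 79.8% ± 0.429 of the pair with siCDK12 and 79.6% ± 0.785 with siCtrl (SD, n = 3; exact two-sided permutation p = 0.8).

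MED13, which tethers the kinase module to the core, was at 22.47, 24.72 and 22.62 FPKM with siCDK12 and at 23.97, 24.26 and 21.86 FPKM with siCtrl (log2 fold change -0.01, 95% interval -0.12 to 0.11). MED13L was at 11.91, 12.63 and 11.35 FPKM with siCDK12 and at 11.54, 12.42 and 11.26 FPKM with siCtrl (log2 fold change 0.03, 95% interval -0.10 to 0.15). Neither gene separated the groups, and MED13 made up 66.0% ± 0.627 of the pair with siCDK12 and 66.5% ± 0.829 with siCtrl (SD, n = 3; exact two-sided permutation p = 0.6). The kinase module as a whole had 1 called gene of 7, 14.3% against 28.3% of all genes tested. Its median log2 fold change was 0.03, the same as the 0.03 over all genes tested.

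**Figure D3:**
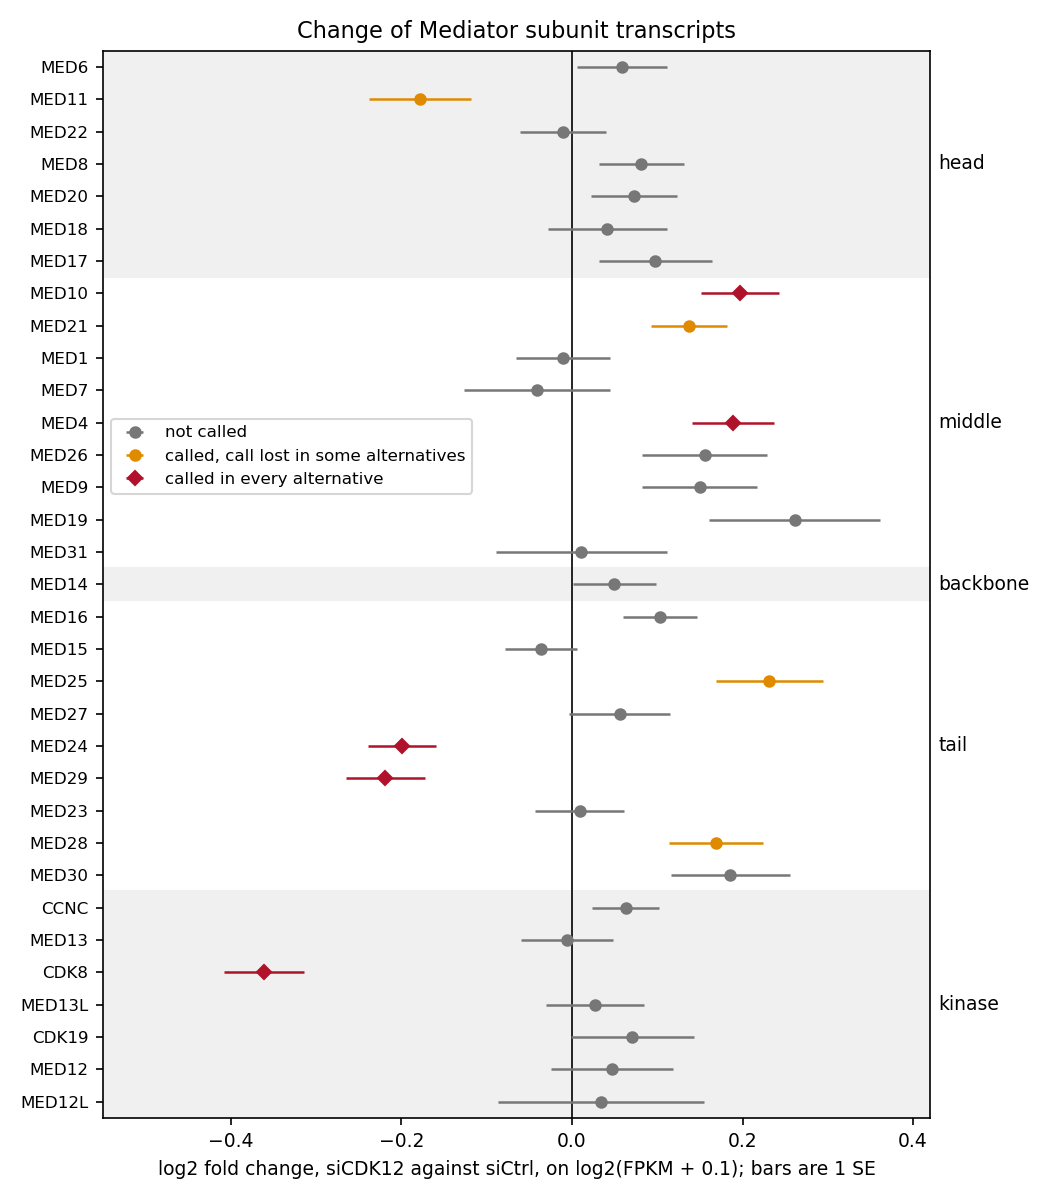
Log2 fold change of each Mediator gene, siCDK12 against siCtrl on log2(FPKM + 0.1), by module, with bars of 1 SE from 3 libraries per group. Diamonds mark the 5 genes called in every alternative, the other coloured circles mark the 4 genes whose call was lost in some, and grey circles mark the 24 genes not called. CDK8 lies farthest from 0, and most middle module genes lie to the right.

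Of the 9 tail genes 2 were higher, 2 lower and 5 not called, 44.4% called against 28.3% of all genes tested, of which 16.1% were higher and 12.3% lower. MED24 (chromosome 17, 40019104 to 40054408), a tail subunit of the complex purified with nuclear receptors, stood at 20.51, 20.81 and 19.91 FPKM with siCDK12 and at 23.72, 23.41 and 23.22 FPKM with siCtrl. It fell by 13.0%, with every siCDK12 library below every siCtrl library (log2 fold change -0.20, SE 0.0396, limma adjusted p = 0.00391). MED29 (chromosome 19, 39391378 to 39400641), a subunit of the upper tail, stood at 19.07, 21.18 and 19.69 FPKM with siCDK12 and at 23.17, 23.23 and 23.36 FPKM with siCtrl. It fell by 14.1% (log2 fold change -0.22, SE 0.0464, limma adjusted p = 0.00568), and its siCtrl libraries were nearly identical.

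MED25, which binds several activators through its own interaction domain, stood at 31.34, 30.04 and 27.95 FPKM with siCDK12 and at 22.98, 26.17 and 27 FPKM with siCtrl. The groups did not overlap. It rose by 17.3% (log2 fold change 0.23, SE 0.0629, limma adjusted p = 0.0197), although siCDK12 replicate 3 and siCtrl replicate 3 lay within 1 FPKM of each other. Its call was lost without siCDK12 replicate 1 (adjusted p = 0.0734), siCDK12 replicate 2 (0.0558) or siCtrl replicate 1 (0.0521), with no filter (0.0588) and with no variance trend (0.0615), with adjusted p from 0.0114 to 0.0734 over its 16 alternatives by limma. MED28, another upper tail subunit, stood at 10.49, 10.82 and 11.49 FPKM with siCDK12 and at 9.91, 9.29 and 9.94 FPKM with siCtrl (log2 fold change 0.17, SE 0.0548, limma adjusted p = 0.0408). The groups were separate, but the call of MED28 was lost in 10 of 16 alternatives, without siCDK12 replicate 2 or 3 or any siCtrl replicate among them (limma adjusted p from 0.0383 to 0.15).

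The other tail genes were MED15, a target of lipid-regulating activators, MED16, MED23, which binds the ETS factor ELK1, MED27 and MED30, with log2 fold changes of -0.04, 0.10, 0.01, 0.06 and 0.19. MED16, the most abundant subunit, stood at 44.52, 43.22 and 42.04 FPKM with siCDK12 and 38.14, 41.48 and 41.27 FPKM with siCtrl, separate groups that missed the threshold (limma adjusted p = 0.0998). MED30, at 9.57, 10.66 and 11.12 FPKM with siCDK12 and 8.93, 8.67 and 9.92 FPKM with siCtrl, overlapped and missed it as well (limma adjusted p = 0.0702), but was called without siCDK12 replicate 1 or siCtrl replicate 3. MED27, MED28, MED29 and MED30 are placed in the head in some classifications. With them there, the head had 1 gene higher and 2 lower of 11, 27.3% called. The tail then had 1 higher and 1 lower of 5, 40.0% called. Among all genes tested 28.3% were called, 16.1% higher and 12.3% lower.

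Of the 9 middle module genes 3 were higher, 0 lower by limma and 6 not called, 33.3% called and so near the 28.3% of all genes tested, of which 16.1% were higher and 12.3% lower. The median log2 fold change was 0.15 against 0.03 over all genes tested (0.13 against 0.01 after median-ratio scaling or quantile normalization). At an unadjusted p under 0.05 there were 5 such genes, all of them higher, whereas 40.1% of all genes tested passed that threshold, 23.6% higher and 16.5% lower. MED10 (chromosome 5, 6371874 to 6378547), known in yeast as Nut2, stood at 17.87, 17.21 and 17.1 FPKM with siCDK12 and at 14.56, 15.56 and 15.37 FPKM with siCtrl. It rose by 14.7% (log2 fold change 0.20, SE 0.0456, limma adjusted p = 0.00897). MED4 (chromosome 13, 48075724 to 48095104), a structural subunit of the module, stood at 10.33, 10.29 and 10.36 FPKM with siCDK12 and at 9.26, 8.93 and 8.95 FPKM with siCtrl, and rose by 14.1% (log2 fold change 0.19, SE 0.0479, limma adjusted p = 0.0142). Both genes separated the groups completely.

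MED21, which in yeast pairs with MED7 in the hinge of the module, stood at 15.31, 16.1 and 15.49 FPKM with siCDK12 and at 14.1, 13.98 and 14.54 FPKM with siCtrl. The groups did not overlap (log2 fold change 0.14, SE 0.0445, limma adjusted p = 0.0409), but the call of MED21 did not withstand the loss of any single library, with adjusted p from 0.0392 to 0.127 over 16 alternatives by limma and 10 calls lost. MED9 had separate groups too, with siCDK12 values of 10.09, 8.39 and 8.91 FPKM against siCtrl values of 8.19, 8.17 and 8.23 FPKM (limma adjusted p = 0.122).

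MED19 had the largest estimate of the middle module and the widest spread. It stood at 7.13, 10.05 and 8.86 FPKM in siCDK12 replicates 1, 2 and 3 and at 7.05, 7.28 and 7.14 FPKM with siCtrl, so that siCDK12 replicate 1 lay among the siCtrl libraries and the other two above them (log2 fold change 0.26, SE 0.1, limma adjusted p = 0.0741). Without siCDK12 replicate 1 MED19 was called, with a log2 fold change of 0.39 and a limma adjusted p of 0.00399. MED26, which links Mediator to elongation factors when the kinase module is absent, was at 9.74, 8.96 and 10.05 FPKM with siCDK12 and at 8.06, 9.57 and 8.2 FPKM with siCtrl. The groups overlapped through siCtrl replicate 2 (log2 fold change 0.16, limma adjusted p = 0.138), and without that library the limma adjusted p was 0.0334. MED7 and MED31 overlapped between groups, with log2 fold changes of -0.04 and 0.01. MED31, at 3.32 FPKM in siCtrl cells, shares 1231 bases of its span with TXNDC17, at 13.1 FPKM, so its reads there are uncertain.

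MED1 transcript, the ER-binding subunit, was at 11.94, 11.57 and 10.75 FPKM with siCDK12 and at 11.75, 11.72 and 11.03 FPKM with siCtrl. The groups overlapped fully, with a log2 fold change of -0.01 whose 95% interval ran from -0.13 to 0.11 (limma adjusted p = 0.905). The sign of the MED1 estimate turned to positive without siCDK12 replicate 3, siCtrl replicate 1 or siCtrl replicate 2. MED1 (chromosome 17, 39404285 to 39451263, GRCh38.p14) is the direct neighbour of CDK12, which begins 10.2 kb beyond it, and MED24 lies 452 kb past the other end of CDK12. Of these 2 Mediator genes on either side of the siRNA target, MED24 was called and MED1 was not. MED14, the backbone, was at 9.21, 9.34 and 9.43 FPKM with siCDK12 and at 8.94, 8.91 and 9.18 FPKM with siCtrl, separate groups with a difference of 0.05 on the log2 scale that did not pass (limma adjusted p = 0.482).

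**Figure D4:**
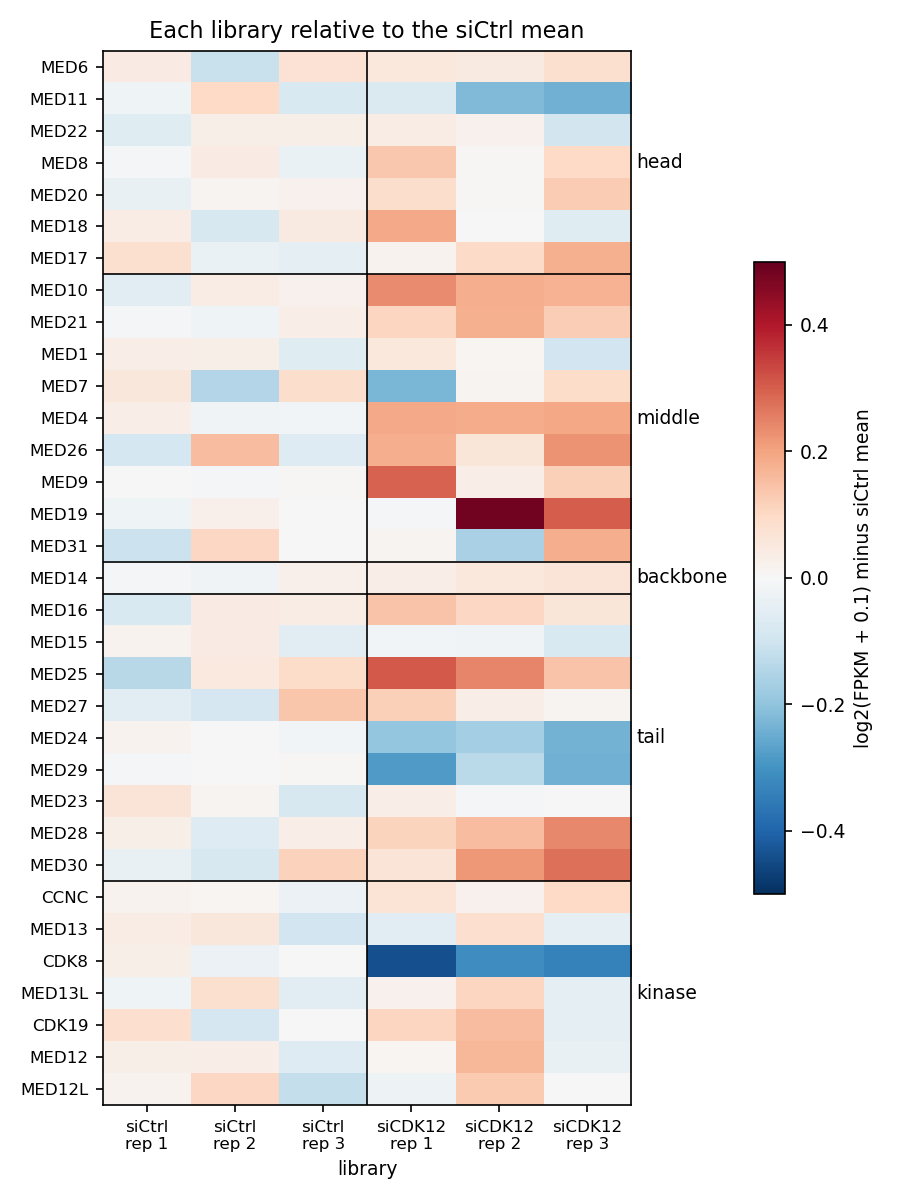
Log2(FPKM + 0.1) of each Mediator gene in each library minus its siCtrl mean (red, above; blue, below), with horizontal lines between modules and a vertical line between 3 siCtrl and 3 siCDK12 libraries. CDK8, MED24 and MED29 are blue in all 3 siCDK12 libraries, MED10 and MED4 red in all 3, and MED19 is red in siCDK12 replicates 2 and 3 alone.

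Of the 7 head genes 0 were higher and 1 was lower by limma, 14.3% called against 28.3% of all genes tested. MED11 alone had an unadjusted p under 0.05, a threshold that 40.1% of all genes tested passed. No head gene separated the groups completely, whereas 43.1% of all genes tested did. MED11, a small subunit that in yeast pairs with MED22, stood at 16.33, 14.71 and 14.53 FPKM with siCDK12 and at 16.93, 18.4 and 16.27 FPKM with siCtrl (log2 fold change -0.18, SE 0.0604, limma adjusted p = 0.0475). The highest siCDK12 library lay above the lowest siCtrl library, and the call of MED11 was lost in 8 of its 16 alternatives, without siCDK12 replicate 2 or 3 or siCtrl replicate 1 or 2 among them (limma adjusted p from 0.0236 to 0.168). MED11 overlaps the end of CXCL16 by 75 bases, and with strand use in counting not given in the sources used here, their reads cannot be told apart there. CXCL16 was at 42.7 ± 1.34 FPKM with siCDK12 and 41.0 ± 1.85 FPKM with siCtrl and was not called. The log2 fold changes of the other head genes were 0.06 for MED6, which joins head and middle, 0.10 for MED17, the central head scaffold, and -0.01 for MED22. For MED8, MED18 and MED20, which form a movable part of the head, they were 0.08, 0.04 and 0.07. MED20 shares 12381 bases of its span with BYSL, at 27.7 FPKM in siCtrl cells, and is uncertain to an unknown extent. The overlaps given for CDK19, MED31, MED11 and MED20 are of whole gene spans, introns included. The exon sequence shared was not measured.

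Summed over genes, the middle module stood at 95.27, 96.82 and 97.21 FPKM with siCDK12 and at 87.68, 88.87 and 88.67 FPKM with siCtrl, 9.08% higher in the mean. The head changed by 0.763%, from 92.6 to 93.3 FPKM, and the tail by 2.02%, from 191.7 to 195.6 FPKM. The kinase module sum changed by -2.73%, from 95.3 ± 2.5 to 92.7 ± 2.47 FPKM (SD, n = 3), and the libraries of the 2 groups overlapped for head, tail and kinase module. These sums weight abundant genes most and are given as a description.

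Mediator genes differ widely in length, from MED11 with a span of 2.18 kb to MED12L with 351.0 kb. Of the 6 members of at least 100 kb (CDK8, CDK19, MED12L, MED13, MED13L and MED27), CDK8 was called, and of the 9 under 10 kb MED10, MED11 and MED29 were called. Among all genes tested 28.3% were called, a share that was not taken by length. Across the 33 genes Spearman's rho of span with log2 fold change was -0.157, and that of siCtrl level with log2 fold change was -0.265. Both are descriptions across genes that share the same 6 libraries, and genes are not independent replicates.

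**Figure D5:**
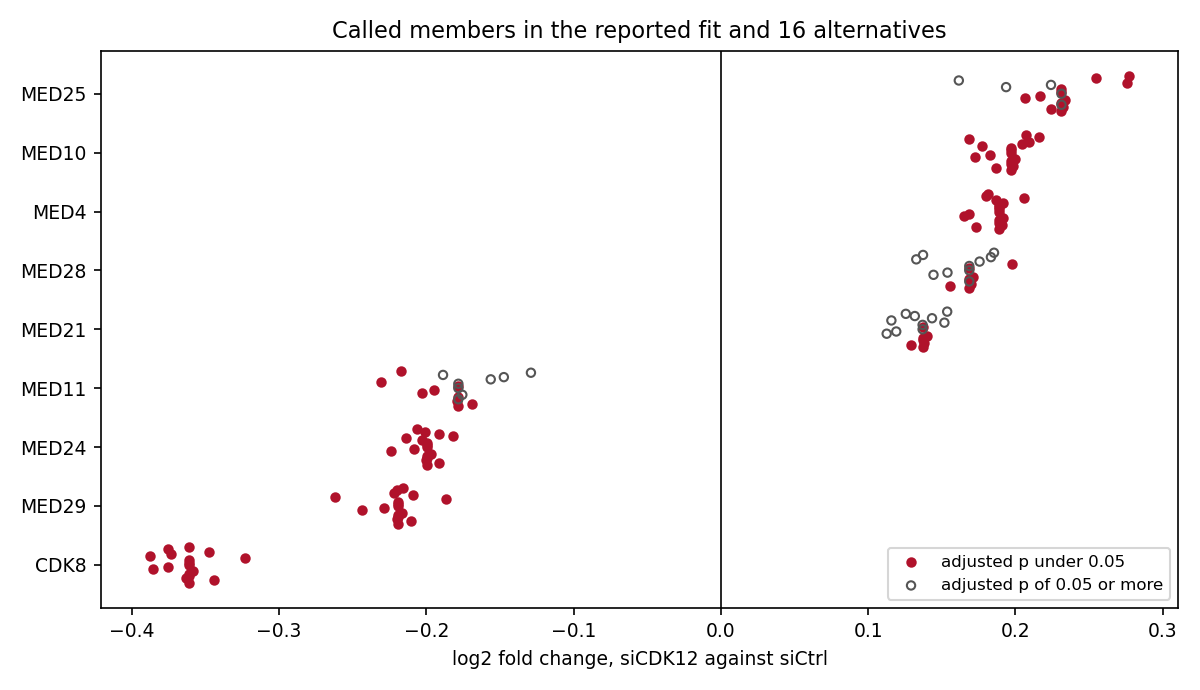
Log2 fold change of the 9 called Mediator genes in the reported fit and each of 16 alternative analyses (1 point per fit; filled, adjusted p under 0.05; open, 0.05 or more). All points of a gene lie on the same side of 0, and those of CDK8, MED29, MED24, MED4 and MED10 are all filled.

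Among 23 genes whose products work with Mediator, 4 were higher, 1 was lower and 18 were not called, 21.7% against 28.3% of all genes tested. The list holds the super elongation complex that MED26 recruits, cohesin and its loader, the p160 nuclear receptor co-activators and FBXW7, the ubiquitin ligase for MED13. MLLT1, a chromatin-reading subunit of the elongation complex, stood at 29.1, 28.79 and 28.48 FPKM with siCDK12 and at 24.27, 25.09 and 25.24 FPKM with siCtrl (log2 fold change 0.21, limma adjusted p = 0.00229). ELL, an elongation factor of the same complex, was higher by 0.23 (limma adjusted p = 0.0173, lost without siCDK12 replicate 2 or siCtrl replicate 1). EAF2, an ELL partner, was higher by 0.33 from a low level (2.06 to 2.62 FPKM; limma adjusted p = 0.0434, lost in 9 of its 15 alternatives, without siCDK12 replicate 1 or 3 or any siCtrl replicate among them). The fourth, NCOA2, was higher by 0.16 (limma adjusted p = 0.0461, lost in 11 of 16, among them those without any 1 library other than siCtrl replicate 2).

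NCOA3, a p160 co-activator that is abundant in these cells, stood at 143.28, 151.54 and 140.73 FPKM with siCDK12 and at 167.28, 165.37 and 157.23 FPKM with siCtrl. It fell by 11.1% with no overlap between groups (log2 fold change -0.17, limma adjusted p = 0.00883), a call kept in all 16 alternatives. Of the 7 cohesin and loader genes, 0 were called by limma in either direction and 0 had an unadjusted p under 0.05, and FBXW7 was not called. The sixth partner gene at an unadjusted p under 0.05 was CCNT2, a cyclin of the elongation complex (log2 fold change -0.17, limma adjusted p = 0.0571). Without siCtrl replicate 1 a single partner gene, MLLT1, was higher, and with any 1 of the siCDK12 replicates left out 2 were higher.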

How the data were processed

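RNA sequencing of 6 LY2 libraries, 3 siCDK12 and 3 siCtrl, was used. The authors cleaned reads with SOAPnuke, and GRCh38, Bowtie2, RSEM and DESeq2 are listed among the tools and builds in the submitters' processing notes. Values were deposited as FPKM by the authors and no counts were used here, so the count behind each value is unknown and no counting interval is given. The study's methods state only a nominal depth, the same for each sample. Columns were matched to samples by library name.

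Log2(FPKM + 0.1) was fitted with a variance trend in limma 3.58.1 (R 4.3.3), after a filter at a mean of 1 FPKM. Tests of siCDK12 against siCtrl were two-sided, and p-values of all 11533 genes were adjusted by Benjamini-Hochberg, with calls under 0.05. Fold changes on this scale understate changes of low genes. Paralog shares were compared with exact permutation tests. P-values rest on the spread between these libraries, and in limma the variance of each gene is drawn toward a trend over all genes. Members, lists and tests were chosen with earlier results of these data known. All 33 members were to be reported, with values per library for called members, the paralog pairs, CCNC, MED1, MED14 and MED26, and up to 3 called partner genes per direction. MED9, MED16, MED19, MED30, NCOA2 and CCNT2 were added after their values were seen. Positions and promoter windows came from RefSeq (GRCh38.p14), matched by gene ID. Alternatives were pseudocounts of 1 and 0.01, no filter or a mean of 5 FPKM, 3 other scalings, other variance estimates, a replicate block, each library left out, and the placement of MED27 to MED30.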

Additional observations from a re-analysis of the deposited data

How the results depend on the processing

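CDK8, MED24, MED29, MED4 and MED10 kept direction and call in all 16 alternatives, and CDK12 stayed lower in each (log2 fold change from -2.15 to -1.75). Called Mediator members numbered 5 higher and 4 lower. The number higher was 3 with no filter, median-ratio scaling, quantile normalization or a replicate block and 2 with no variance trend, and 2 to 5 with a library left out. The number lower was 3 or 4 throughout. Over all genes, calls higher ranged from 1207 to 1603 with a library left out, against 1853. Partner genes called higher were 2 with no filter, median-ratio scaling, quantile normalization or a replicate block, and 1 to 3 with a library left out, and those lower were 2 with median-ratio scaling or quantile normalization, where CCNT2 joined NCOA3.

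The MED1 log2 fold change ranged from -0.0433 to 0.0318 with a library left out, and was positive when siCDK12 replicate 3 (0.0318), siCtrl replicate 1 (0.0049) or siCtrl replicate 2 (0.0031) was absent. The difference in MED12 share, 0.135 percentage points, ranged from -0.289 to 0.487 with a library left out, negative when siCDK12 replicate 1 (-0.00368) or siCtrl replicate 2 was absent. The CDK8 share difference ranged from -6.93 to -5.07 points, and the MED13 share difference from -0.777 to -0.0274. Deviations of same-numbered libraries correlated at -0.0029, 0.0197 and -0.0279, so no shared replicate effect was visible. Whether same-numbered libraries were prepared together is not known. The replicate block gave 3 Mediator genes higher and 3 lower. The cause of these shifts was not tested. FPKM without counts leaves the precision of low genes such as MED12L and MED31 unknown beyond the spread of 3 libraries.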
